A study of Mus musculus with 2 samples.

Results

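Exons more than 1 kb from any start of a protein-coding transcript held 3874 of the 74516 regions of open chromatin that both samples of mouse calf muscle shared, or 5.20% of them. A region was made by merging peaks of both samples that had at least 1 base in common, and it was kept where each sample contributed a peak. Of the exonic regions, 1975 touched inner exons (those with an exon before and after them in the transcript) and no last exon, 1599 touched last exons and no inner exon, 117 touched both kinds, and 183 touched first or single exons alone. They are set beside 23807 intronic and 26135 intergenic regions that obeyed the same distance limit, while 20700 further regions lay within 1 kb of a start site.

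The tissue was the gastrocnemius, a large muscle of the calf, from B6CASTF1/J hybrids (F1), all adult males of 18 to 20 months. Open chromatin was read by DNase-seq, in which DNase I cuts accessible DNA in nuclei and the cut ends are sequenced. The labels give 2 biological replicates, each with technical replicate 1, and no control, treatment or other age. Their donor label is shared while their biosample labels differ, so it is not known whether they stem from 1 animal, and the spread given as SD (n = 2) may be technical. The gastrocnemius holds several cell types, and fewer open cells or weaker opening per cell cannot be told apart in such a bulk sample. A peak lay within 1 kb of a start site of all 7 muscle fibre markers checked (Acta1, Ckm, Des, Ttn, Actn3, Mybpc2 and Tnnt3) in each replicate, and likewise of all 3 fibro-adipogenic and all 3 endothelial markers. None of the 2 satellite cell, 2 immune, 2 liver, 2 heart and 2 germ cell markers had such a peak in either replicate. The share of all protein-coding genes with such a peak was not counted, so these counts have no background beside them.

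Exons are the parts of a gene kept in its mature transcript, and their bases are read by the ribosome or, in the untranslated parts, by factors that govern the transcript's stability and translation. The same DNA can also be bound by transcription factors, so that an exon may lie in an enhancer, in a promoter of a shorter transcript or at a binding site of CTCF, the zinc finger protein that anchors chromatin loops. A bound factor shields a few bases from DNase I, and such a shielded stretch inside an open region is called a footprint.

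The strongest inner-exon regions in which a footprint found in both replicates lay wholly in coding sequence and held a listed motif show how a protein code and a shielded stretch can share bases. The coding part of each is printed on the strand of its gene, on build mm10 (GRCm38), with those footprints in capitals. For Angptl6 the first 300 bases are shown.
Inpp5b chr4:124751421-124751640 (plus strand): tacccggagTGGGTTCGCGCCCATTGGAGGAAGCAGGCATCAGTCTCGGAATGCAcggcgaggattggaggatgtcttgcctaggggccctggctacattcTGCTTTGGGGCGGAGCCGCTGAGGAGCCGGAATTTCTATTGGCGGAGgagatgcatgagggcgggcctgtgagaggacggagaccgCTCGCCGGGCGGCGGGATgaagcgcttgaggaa
Angptl6 chr9:20878201-20878500 (minus strand): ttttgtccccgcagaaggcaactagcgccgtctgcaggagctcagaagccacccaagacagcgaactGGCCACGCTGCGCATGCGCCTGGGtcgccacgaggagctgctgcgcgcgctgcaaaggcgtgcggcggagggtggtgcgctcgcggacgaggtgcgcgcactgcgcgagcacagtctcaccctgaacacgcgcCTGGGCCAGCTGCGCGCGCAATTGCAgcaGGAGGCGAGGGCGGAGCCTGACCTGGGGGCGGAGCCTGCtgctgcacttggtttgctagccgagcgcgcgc
Sptbn4 chr7:27361567-27361660 (minus strand): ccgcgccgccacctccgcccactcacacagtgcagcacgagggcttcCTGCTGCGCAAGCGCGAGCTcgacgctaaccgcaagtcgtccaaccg
Ccdc194 chr8:71521839-71521940 (minus strand): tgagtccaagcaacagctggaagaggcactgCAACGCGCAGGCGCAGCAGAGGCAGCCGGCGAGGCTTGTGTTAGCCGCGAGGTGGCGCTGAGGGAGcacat
Stk35 chr2:129801421-129801620 (plus strand): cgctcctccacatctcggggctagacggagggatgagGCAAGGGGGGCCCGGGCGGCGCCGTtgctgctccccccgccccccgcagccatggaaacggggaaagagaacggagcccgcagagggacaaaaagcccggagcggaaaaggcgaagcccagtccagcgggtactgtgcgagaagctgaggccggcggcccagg
Myom3 chr4:135801716-135801783 (plus strand): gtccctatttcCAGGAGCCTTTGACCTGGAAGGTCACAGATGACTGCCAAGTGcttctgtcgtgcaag

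These 6 stretches were picked for their signal and for a listed motif in a footprint, so that they hold both is no result. Inpp5b, whose product removes phosphate groups from phosphoinositides, reached 8.28 (signal, replicate 1) and 10.6 (replicate 2), and its 3 capital runs held the TEAD motif GGAATG and the GC box GGGCGG. Angptl6, which encodes a secreted angiopoietin-like protein, had 8.58 and 10.001 and held the NRF1 motif, the myogenic E-box CAGCTG and the GC box. The region of Inpp5b was centred 177 bp from the start of a processed transcript of Gm12915, and that of Angptl6 1406 bp from its own start site. The regions of Sptbn4 and Ccdc194 were centred 5532 and 3860 bp from a protein-coding start site. Sptbn4, the spectrin of axon initial segments, had 8.52 and 8.19 around an NRF1 match, and Ccdc194 had 6.45 and 7.65 around another. Stk35, a serine/threonine kinase gene, had 4.88 and 6.68 around a GC box, at 1004 bp from a start site. Myom3, which encodes myomesin 3 of the M-band of the sarcomere, had 4.74 and 5.44 around the NFI site TTGGCA, read here on the opposite strand. Myom3 alone among them encodes a protein of the contractile apparatus.

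Exons were more densely open than introns at every distance from a start site. Counted by region centres, there were 44.2 shared regions per Mb of exon (95% Poisson interval 42.5 to 45.9), 27.4 per Mb of intron (27.04 to 27.7) and 16.3 per Mb between genes (16.1 to 16.4), a ratio of 1.61 for exon to intron. Coding exon sequence held 51.7 per Mb and untranslated exon sequence 37.3. Per Mb of bases that are not repeat-masked the 2 values lay closer, at 54.3 and 46.1. Inner exons held 43.7 and last exons 41.9 per Mb, with intervals that overlap, and per Mb of bases that are not repeat-masked the order turned, with 45.7 in inner and 50.6 in last exons. Much of an intron is repeat-masked sequence, and per Mb of unmasked bases the values came to 50.3 in exons, 38.6 in introns and 28.1 between genes, which lowers the ratio of exon to intron to 1.31. Over distance bands the exon to intron ratio was 1.31 at 1 to 2 kb, 1.32 at 2 to 5 kb, 1.38 at 5 to 20 kb and 1.54 beyond 20 kb. All 4 lie below the pooled value's counting interval of 1.55 to 1.67, and exon and intron density both declined with distance. All these intervals cover counting error only, and regions of 1 gene are not independent.

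**Figure D1:**
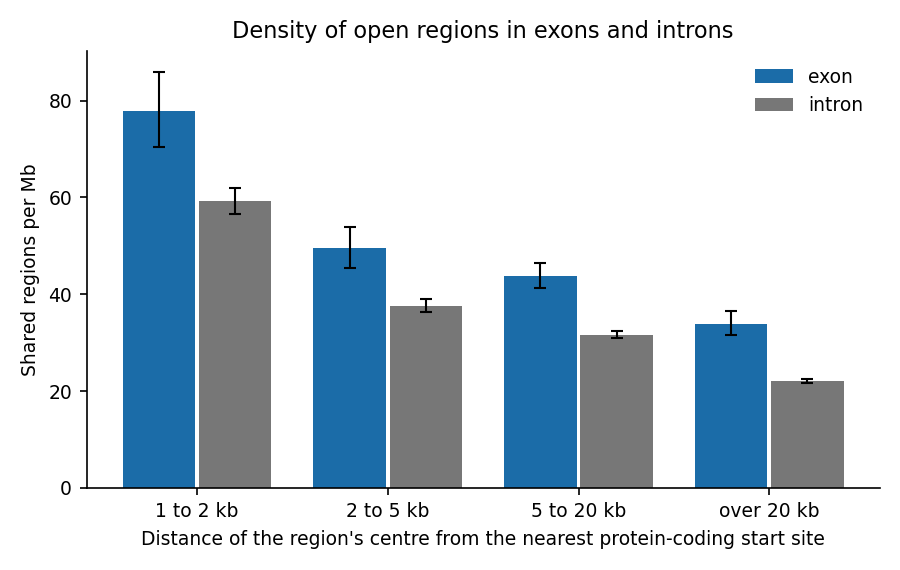
Shared open regions per Mb (y axis) in exons (left bars) and introns (right bars) by distance of the region's centre from the nearest protein-coding start site, with 95% Poisson intervals. Exon density was 77.9 per Mb at 1 to 2 kb and 33.9 per Mb beyond 20 kb, against 59.3 and 22.0 per Mb for introns.

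A single inner exon was rarely open. Of 168980 distinct inner exons whose centre lay over 1 kb from a start site, 2320 shared a base with an exonic region, 1.37% (95% exact binomial interval 1.32 to 1.43). The share grew with exon length. It was 0.879% for exons of up to 100 bp, 2.16% for those of over 200 and up to 500 bp and 6.24% for those over 500 bp, where 227 of 3636 were touched. A longer exon has more bases that a region can touch, and these shares were not corrected for length.

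Most inner-exon regions straddled a splice site rather than filling an exon. Their median width was 220 bp, while 46.6% of their bases were exonic and 44.5% coding. The region crossed the donor end (the 3′ end of the exon) in 36.4% of them, the acceptor end (the 5′ end) in 27.6%, contained the whole exon in 24.8% and lay inside it in 11.2%. Regions inside an exon sat on long exons, of median 810.5 bp, and were the weakest, with median signal percentiles of 61.2 and 49.3 in replicates 1 and 2. Those across the donor end had 69.5 and 57.2. In 208 inner-exon regions, 10.5%, every base was coding.

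Last-exon regions lay mainly in the untranslated end of the transcript. Of the 1599, 62.4% had no coding base, 25.8% were coding in part and 11.8% were wholly coding. The centre fell after the last coding base in 73.2% of them, at a median of 848.5 bp beyond it, and within 500 bp of the end of the transcript in 28.7%. The wholly coding ones had a median of 61.9% G or C, against 53.0% for those with no coding base. Of these 188 regions, 50% were dense in CpG dinucleotides (G or C over 50% and an observed to expected CpG ratio over 0.6), against 5.41% of those with no coding base.

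Because the scale of the deposited signal is not stated, each peak was ranked within its own list, and the percentile of the strongest peak was given to its region. The median percentile was 68.1 in replicate 1 and 56.1 in replicate 2 for exonic regions, a mean of 62.1 ± 8.53 (SD, n = 2). It was 67.03 and 51.6 for intronic and 66.3 and 51.6 for intergenic regions. With all base compositions pooled, exonic regions had the higher median in each replicate. In bands of up to 55% G or C this held in both replicates, but in every band above 55% exonic regions had the lowest median. Where G or C made up over 65%, exonic regions had 68.03 and 63.5, intronic regions 75.7 and 72.7, and intergenic regions 84.1 and 81.3. The SD moves with the lengths of the 2 lists, and with equal numbers of peaks from each replicate the exonic mean was 58.5 ± 0.731 (SD, n = 2). Last-exon regions had 69.5 and 58.5, inner-exon regions 67.4 and 55.2, and regions on first or single exons 55.3 and 50.2. Regions in the top 10% of both lists made up 4.03% of exonic, 2.45% of intronic and 4.54% of intergenic regions.

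**Figure D2:**
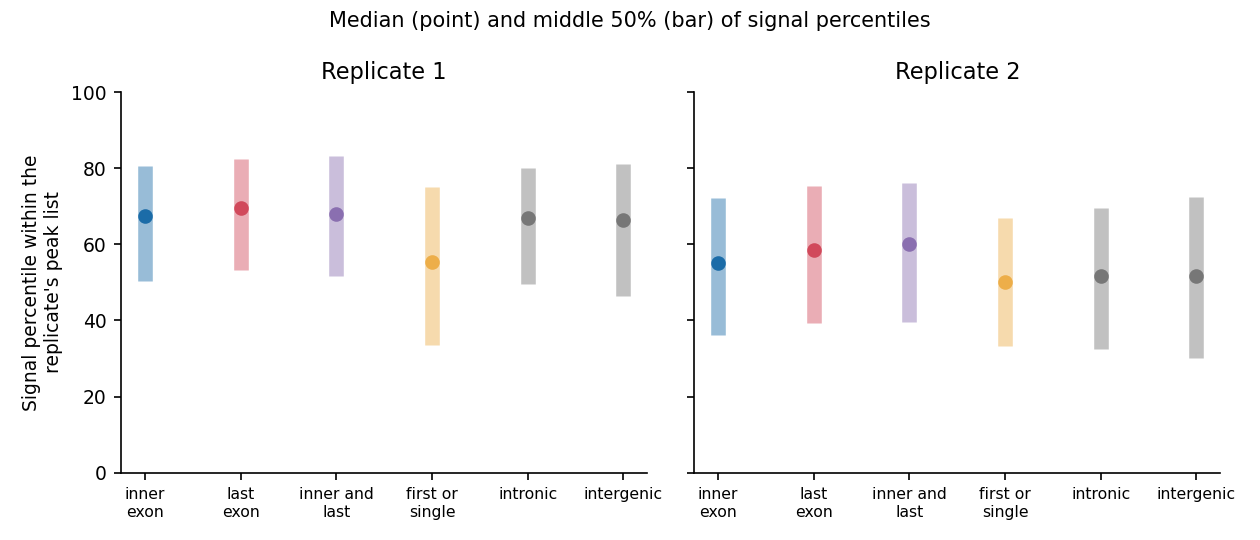
Signal percentile of the strongest peak within its replicate's list (y axis), as the median (point) and middle 50% (bar), for the 4 classes of exonic regions and for intronic and intergenic regions over 1 kb from start sites. Regions on first or single exons were lowest, with medians of 55.3 and 50.2, and the other classes had medians between 66.3 and 69.5 in replicate 1.

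The replicates ranked the exonic regions alike. Across the 3874 regions, which share their libraries, Pearson's r between the log2 signals was 0.902, and 98.01% had signals within 2-fold of each other. The median log2 ratio of replicate 1 to replicate 2 was 0.04 for exonic, 0.14 for intronic and 0.07 for intergenic regions. It moved with base composition in every class. Among exonic regions it was 0.40 where G or C made up at most 45% of the bases and -0.16 where they made up over 65%, and among intronic regions 0.35 and -0.13. The part of base composition in the differences between replicates was not tested.

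**Figure D3:**
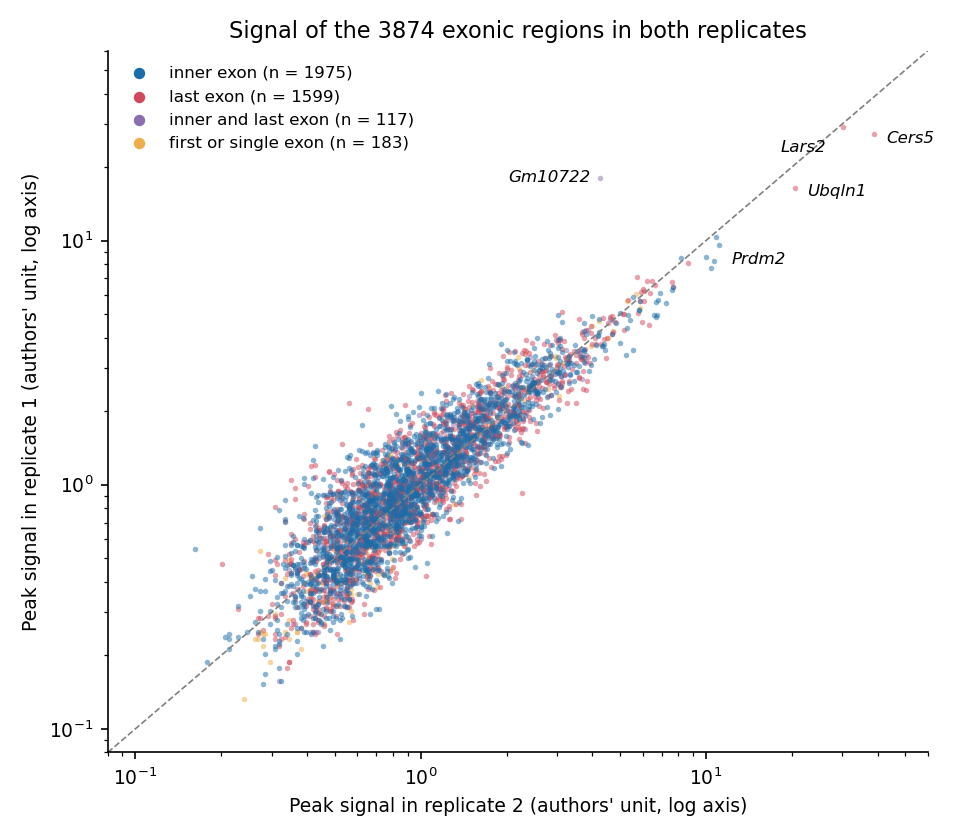
Peak signal of every exonic region in replicate 1 (y axis) and replicate 2 (x axis), both on log axes in the authors' unit and coloured by exon class, with the dashed line marking equal values. Lars2 and Cers5 stand at the top in both replicates, and Gm10722 lies off the line with 18.1 and 4.24.

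Exonic regions were richer in G and C than their neighbours. The median was 55.5% in inner-exon and 55% in last-exon regions, against 52.2% in intronic and 51.7% in intergenic regions. CpG-dense regions made up 16.3% of exonic regions, against 5.59% of all regions over 1 kb from start sites. The share was 12.5% on inner exons, 16.01% on last exons and 57.4% on first or single exons, beside 2.94% of intronic and 6.42% of intergenic regions. CpG-dense exonic regions had median percentiles of 66.8 and 62.4, where CpG-dense intergenic regions had 81.8 and 77.2.

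A limit drawn from protein-coding transcripts leaves in starts of other transcripts. The start of some annotated transcript lay within 1 kb of 18.8% of exonic regions, against 8.91% of all regions over 1 kb from protein-coding start sites. Inner exons had 25.7% (95% exact binomial interval 23.8 to 27.7) and first or single exons 24.6% (18.5 to 31.5). Regions on both inner and last exons had 17.1%, last exons 9.88%, introns 8.06% and intergenic regions 8.22%. For 442 of the 507 inner-exon regions concerned, the nearest start belonged to another transcript of the same gene. It was a retained-intron transcript for 266 of them, a processed transcript for 129 and a transcript marked for nonsense-mediated decay for 46. On last exons, 88 of 158 nearest starts belonged to another gene, 42 of them to antisense transcripts. Inner-exon regions with such a start had median percentiles of 70.1 and 58.8, and those without 66.7 and 53.1. Transcripts were not measured. How often such a start lies near exons without an open region was not counted, so these shares do not set open exons apart from other exons.

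Just beyond the limit, 148 exonic regions with a centre up to 200 bp farther than 1 kb from a start site had median percentiles of 59.1 and 50.04, and 51.4% of them were CpG-dense. Up to 200 bp within the limit, 239 exon-touching regions had 59.9 and 55.2, and 54.8% were CpG-dense. Exonic regions 1 to 2 kb away were CpG-dense in 41.0% of cases and those over 20 kb away in 7.14%.

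A footprint was present in 94.7% of exonic regions in replicate 1 and in 92.3% in replicate 2, a mean of 93.5% ± 1.70 (SD, n = 2). Footprints of both replicates overlapped in 77.2% of exonic regions, against 76.5% of all distal regions, so the share is near the background. It was 78.2% on inner exons, 79.4% on last exons and 51.4% on first or single exons. Within inner-exon regions, the exonic bases held 5.48 shared footprints per kb (95% Poisson interval 5.18 to 5.78) and the other bases 5.61 (5.33 to 5.90). Over all exonic regions the exonic bases held 5.41 per kb (5.24 to 5.58) and the coding bases 4.90 (4.69 to 5.12), against 5.65 (5.61 to 5.69) for bases outside exons in all distal regions. Intronic regions held 5.45 per kb and intergenic regions 5.84. The exonic bases of last-exon regions held 5.89 per kb, and their coding bases 5.08 (4.67 to 5.52). Regions on first or single exons stood apart with 2.53 per kb (2.19 to 2.91).

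Across splice sites the footprints of inner-exon regions were uneven. In the 20 bp of intron next to the acceptor end there were 4.45 shared footprints per kb of open sequence (95% Poisson interval 3.56 to 5.49), and 41 to 60 bp into the intron there were 7.37 (6.04 to 8.90). The intron beyond the donor end had 4.70 per kb (3.86 to 5.67) in its first 20 bp and 8.57 (7.36 to 9.92) from 21 to 40 bp. Inside the exon the values ran between 5.01 and 6.86 per kb over both ends. From 141 to 160 bp into the intron the values were again low, at 5.04 per kb before the acceptor end and 4.67 beyond the donor end. Splice sites share base composition, and whether this moved the footprint calls was not tested.

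**Figure D4:**
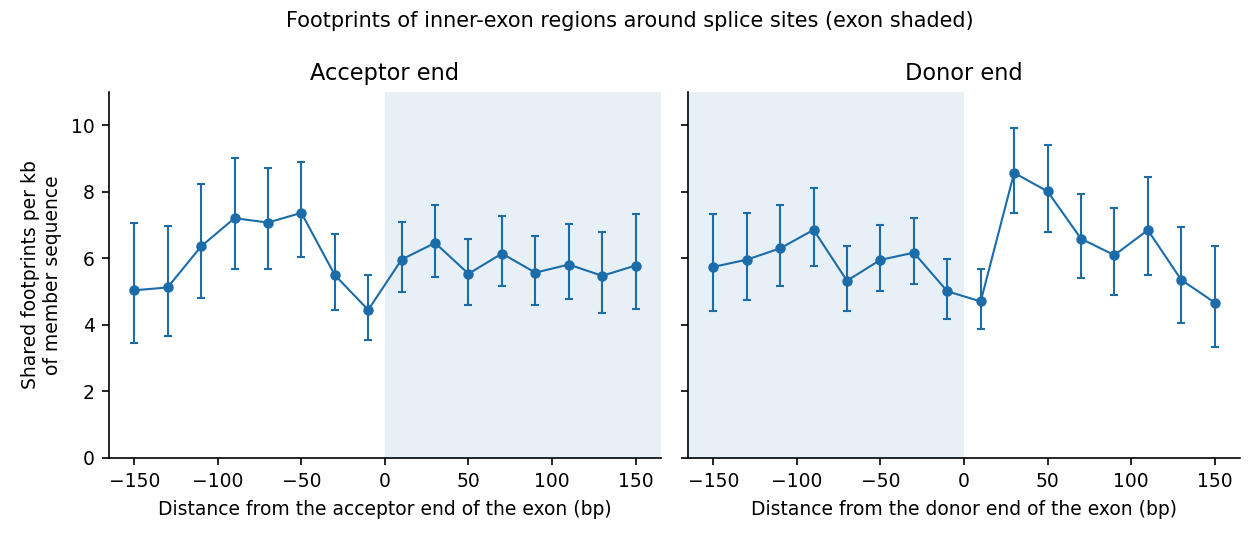
Shared footprints per kb of inner-exon region sequence (y axis) in bins of 20 bp by distance of the footprint's centre from the acceptor end (left panel) or donor end (right panel) of the exon, which is shaded, with 95% Poisson intervals. The highest value was 8.57 per kb from 21 to 40 bp into the intron beyond the donor end, and the lowest 4.45 per kb in the 20 bp of intron before the acceptor end.

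Motifs were searched on both strands as the myogenic E-box CAGCTG, the general E-box CACGTG, AP-1 as TGANTCA, TEAD as GGAATG, the GC box GGGCGG, the CACCC box CCACCC, ETS as CCGGAAG, RUNX as TGTGGTT, ERR as TCAAGGTCA, the NFI site TTGGCA, CRE as TGACGTCA, MEF3 as TCAGGTTTC, a SMAD pair as GTCTAGAC, and MEF2, SRF, CTCF and NRF1 by their consensus. A base could belong to matches of more than 1 motif. A match is a description and no measure of binding.

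CTCF matches stood out by how often they were footprinted. A match was present in 9.94% of exonic regions (385 of 3874), against 8.24% of all distal regions, with 9.82% on inner exons, 11.01% on last exons, 7.05% in introns and 9.08% between genes. Of the 386 matches in exonic regions, 366 overlapped a footprint of both replicates, 94.8% (95% exact binomial interval 92.1 to 96.8). For matches wholly in coding sequence it was 69 of 72 (95.8%, 88.3 to 99.1), and for intronic regions 1575 of 1699 (92.7%, 91.4 to 93.9). A difference between coding matches and those of intronic regions was not tested, and the 72 coding matches leave a wide interval. Regions with a CTCF match ranked high in every place. Their median percentiles were 77.9 and 70.6 for exonic, 76.3 and 66.3 for intronic, and 76.7 and 67.01 for intergenic regions. In the longest coding transcript of each gene, the match ran along the coding strand in 30 of 71 cases inside exonic regions and against it in 41. Its first base was the third of a codon in 19 of the 30 sense matches, and all 230 matches in distal coding exons, open or not, gave 50 of 90.

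The myogenic E-box, bound by MyoD and its relatives, was found in 30.7% of exonic regions, against 27.0% of all distal regions. It was in 31.7% of inner-exon, 28.9% of last-exon, 27.6% of intronic and 25.9% of intergenic regions. Of its matches, 17.2% overlapped a footprint of both replicates in inner-exon regions and 18.0% in intronic ones. Over all exonic regions it was 16.1%, beside 11.6% for AP-1, 14.5% for TEAD, 31.5% for the NFI site and 35.1% for the GC box. The share that would overlap a footprint by position alone was not counted. In coding sequence of exonic regions CAGCTG began a codon in 419 of 717 cases (58.4%, 95% exact binomial interval 54.7 to 62.1), and in all distal coding exons in 14877 of 27838 (53.4%). GC boxes were in 18.4% of exonic regions against 12.0% of all distal regions, NRF1 in 1.19% against 0.453%, and ETS in 3.64% against 2.27%. AP-1 was in 8.67% against 12.5%, TEAD in 13.4% against 15.7%, MEF2 in 0.774% against 1.30% and SRF in 0.800% against 1.28%. The NFI site was in 22.2% against 24.0%, RUNX in 4.21% against 5.12%, CRE in 0.465% against 0.609% and ERR in 0.490% against 0.427%. Matches were not corrected for base composition.

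The 10 strongest inner-exon regions had observed to expected CpG ratios between 0.718 and 1.05, and 5 of them had an annotated start within 1 kb. Brd2, which encodes a reader of acetylated histones, came first, with signals of 10.3 and 10.8 in replicates 1 and 2, at chromosome 17, 34119321 to 34119660, in exon sequence that is not coding. It lay 1002 bp from a protein-coding start site, at the very edge of the rule, and 50 bp from the start of a processed transcript of the neighbouring gene H2-DMa. Prdm2, a histone lysine methyltransferase gene, had 9.57 and 11.2 at chromosome 4, 143162121 to 143162360, which was 32494 bp from a protein-coding start site and 4362 bp from any. Itga2b, the platelet integrin subunit, had 7.72 and 10.4, with a processed transcript of its own starting 22 bp away.

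Zfp503, a transcriptional repressor gene, had 6.28 and 7.58 at 1610 bp from its start site. Msra, which repairs oxidised methionine, had 6.13 and 6.92, and Spaca6, a gene needed for sperm to fuse with the egg, had 5.56 and 7.25. A retained-intron transcript starts 14 bp from the centre of the Msra region and another 0 bp from that of Spaca6. Among the 10, Brd2 and Zfp503 alone had no coding base.

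The 3 strongest last-exon regions were untranslated and had signals above every inner-exon region. Lars2, the mitochondrial leucyl-tRNA synthetase, had 29.3 in replicate 1 and 30.2 in replicate 2 at chromosome 9, 123461901 to 123462100, but 62.9% of its 31-base words occur elsewhere in the genome, in up to 8 copies. Reads from such words can be placed at more than 1 site, and their part in this signal was not tested. Cers5, a ceramide synthase gene, had 27.3 and 38.9 in its untranslated last exon at chromosome 15, 99735661 to 99736060, where no 31-base word was repeated. Ubqln1, which carries ubiquitinated proteins to the proteasome, had 16.4 and 20.5 at chromosome 13, 58177601 to 58177820, with 37.7% G or C and no footprint shared by the replicates. Its signal percentile was 99.99 in both replicates.

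The next 7 last-exon regions were weaker and held 2 to 6 shared footprints each. Dand5, which encodes a secreted antagonist of Nodal, had 8.07 and 8.63, and Rtn2, a reticulon of the endoplasmic reticulum, had 6.78 and 7.62. Plekhf1, whose product sits on endosomes, had 6.45 and 7.65 with 6 shared footprints. Spi1, the master transcription factor of macrophages, had 6.85 and 6.46 in a wholly coding stretch of its last exon at chromosome 2, 91115161 to 91115360. The start sites of the immune markers Ptprc and Csf1r had no peak in either replicate. Its nearest annotated start belongs to Mybpc3, the cardiac myosin-binding protein C gene, 2883 bp away. Btbd19 had 6.59 and 6.61, Frmd8 6.86 and 6.23, and Pura, which encodes a DNA-binding protein of purine-rich elements, 6.10 and 6.37.

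Repeated sequence touched few exonic regions. In 24 of them, 0.620%, over 50% of the 31-base words occurred elsewhere in the genome, against 1.12% of all distal regions. They included Gm10722 on chromosome 9, where every word was repeated and the signal was 18.1 in replicate 1 and 4.24 in replicate 2, and 2 of the regions of Plin4.

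The exonic regions fell to 3070 protein-coding genes, and 609 of these held 2 or more. The 13 genes with the most, at 5 to 8 each, differed in how the regions lay. In Syne1, Dst, Ccdc162 and Itsn1 they were spread over more than 100 kb. Syne1, the giant nesprin of the nuclear envelope, had 8 regions over 270.2 kb with signals of 0.279 to 1.93 in replicate 1 and 0.430 to 1.63 in replicate 2. Dst, a cytoskeletal linker, had 7 over 123 kb, 5 of them with a shared footprint. Ccdc162 had 6, all with a shared footprint, and Itsn1, an endocytic scaffold, had 5 over 117 kb with 9 shared footprints. Cebpd, a transcription factor gene, had 5 within 2.36 kb with 10 shared footprints.

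Other genes held weak regions close together with few footprints. Llgl1, a cell polarity gene, had 6 inner-exon regions within 5.87 kb, the longest of 1480 bp, with signals of 0.152 to 0.381 in replicate 1 and 0.179 to 0.492 in replicate 2. They held 1 shared footprint, 0.242 per kb, against 5.55 per kb over all inner-exon regions, most of which had higher signals. Footprints were not compared among regions of equal signal, for Llgl1 or for the genes named after it. The longest Llgl1 region adjoined the next with no base between them. Acap3 had 5 regions within 7.12 kb with signals of 0.157 to 0.239 and 0.207 to 0.319, and no shared footprint. Plec, which encodes plectin, had 4 regions of at most 0.289 and 0.430, beside 1 inner-exon region of 5.59 and 6.66 with 6 shared footprints.

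Irs1, the insulin receptor substrate, had 5 regions of up to 1220 bp within 4.04 kb at its long first exon. Their signals were 0.330 to 0.985 in replicate 1 and 0.453 to 0.9504 in replicate 2. On chromosome 1, those at 82286441 to 82287080, 82287081 to 82288300 and 82288301 to 82288576 adjoin with no base between them. In the first of these, 304 of 640 bases were exonic. Adjoining regions that share no base count apart, so the number of regions per gene partly reflects where peaks were cut. Pcdh17, a protocadherin gene, and Tchh, which encodes trichohyalin of the hair follicle, held 5 each, with 0.969 and 1.07 shared footprints per kb. Plin4, a lipid droplet protein gene, had 5 of median 620 bp, and Prr36 had 5 within 1.24 kb. Over all exonic regions, those of 500 bp or more made up 5.83%, against 2.29% of intronic and 3.07% of intergenic regions. Their median percentiles were 57.5 and 49.3, below the 68.8 and 56.7 of narrower exonic regions, and 61.5% of them had a shared footprint against 78.2%. A region that touched an exon with any base counted as exonic, so the rule itself favours wide regions in this class.

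Shares of genes with an exonic region ranged from 8.33% to 47.2% over the 15 lists. Over all 21829 protein-coding genes the share with at least 1 was 14.1%. It was 47.2% for the muscle transcription factors (17 of 36), 40.7% for glycolysis and glycogen (11 of 27), 40% for excitation and calcium handling (12 of 30), 37.5% for the sarcomere (15 of 40), 31.3% for atrophy and proteolysis (5 of 16) and 23.3% for mitochondria and fatty acid oxidation (7 of 30). Lists of other cells reached similar shares, with 46.2% for satellite cells (6 of 13), 40% for matrix and fibro-adipogenic genes (12 of 30) and 27.3% for endothelial and mural genes (6 of 22). It was 33.3% for neurons (4 of 12), 25% for immune cells (3 of 12), 18.8% for housekeeping genes (3 of 16), 16.7% for clock genes (3 of 18) and for germ cells (2 of 12), and 8.33% for liver (1 of 12).

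Long genes have more exon to hit, so the regions were also counted per 10 kb of exon. All protein-coding genes had 0.509, while the muscle transcription factors had 1.51, glycolysis and glycogen 1.49, excitation and calcium handling 1.20, mitochondria 1.09, the sarcomere 0.848, satellite cells 1.26, matrix genes 0.953, atrophy and proteolysis 1.08, immune cells 0.748, endothelial and mural genes 0.742, germ cells 0.717, neurons 0.704, housekeeping genes 0.624, clock genes 0.357 and liver 0.245. The lists were chosen with earlier results of these data known, and their shares are descriptions.

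**Figure D5:**
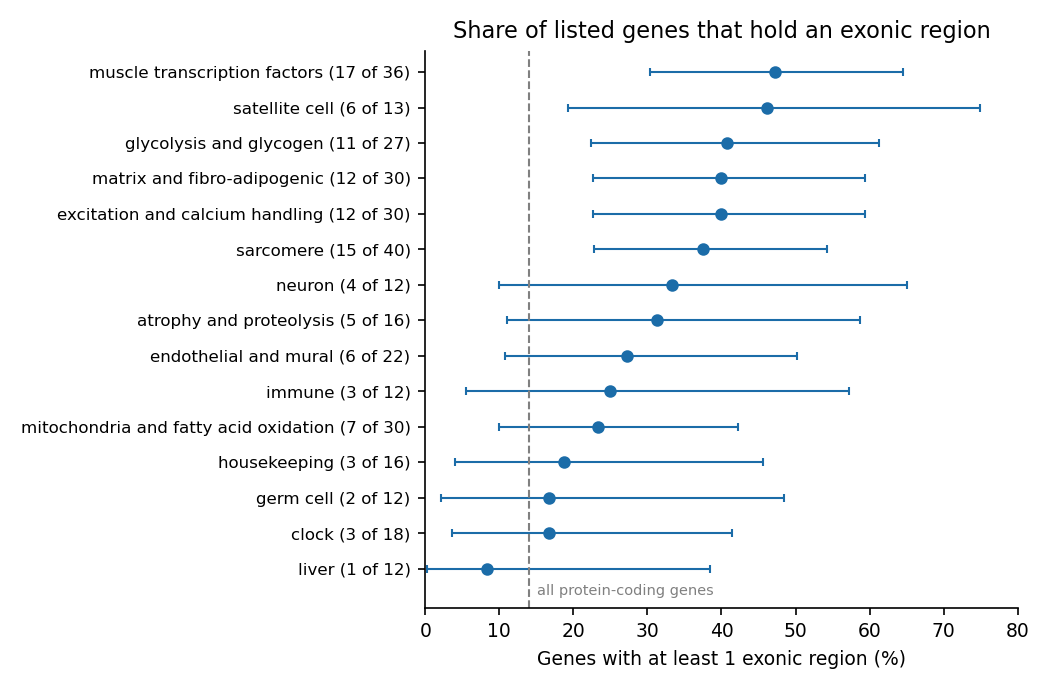
Share of the genes of each list that held at least 1 exonic region (x axis, %), with exact 95% binomial intervals and counts beside each name, and the dashed line at 14.1% for all protein-coding genes. Muscle transcription factors were highest at 47.2% and liver genes lowest at 8.33%.

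Among muscle transcription factors, Sox6, which represses slow fibre genes in fast fibres, had signals of 3.57 and 2.30 in replicates 1 and 2 in its untranslated last exon, and Nfatc2, a calcium-responsive factor, had 2.55 and 2.60. Among sarcomere genes, Nrap, an actin-anchoring protein gene, had 2.69 and 2.63 in an inner exon at chromosome 19, 56342141 to 56342340, where 196 of 200 bases were coding. Mylk2, the kinase of skeletal myosin light chain, had 2.64 and 2.47 in an inner exon. Their percentiles in replicate 1 were 91.03 for Nrap and 90.8 for Mylk2.

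In the group of excitation and calcium genes, Dysf, which encodes the membrane repair protein dysferlin, had 3.38 and 2.85 in an inner exon 120712 bp from a protein-coding start site. Sypl2, a protein of the triad junction, had 2.80 and 1.95 in its last exon. Gys1, muscle glycogen synthase, had 2.47 and 2.49, and Gpd1, glycerol-3-phosphate dehydrogenase, had 2.29 and 2.01 in its last exon. Slc25a4, the ADP/ATP carrier of muscle mitochondria, had 2.87 and 1.99, and Tfam, which maintains mitochondrial DNA, 2.22 and 1.96. Fbxl22, an F-box protein of the sarcomere, had 3.26 and 3.66 and Fbxo31, another F-box protein, 2.99 and 2.01. Replicate 1 gave the higher value in 9 of these 12 regions, and replicate 2 in Gys1, Nfatc2 and Fbxl22. Over all 3874 exonic regions the median log2 ratio of replicate 1 to replicate 2 was 0.04, with quartiles of -0.21 and 0.34. The share of all exonic regions with the higher value in replicate 1 was not counted, and the signal scale is not stated. The count therefore does not set these genes apart from other exonic regions.

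Regions of the other lists ranged more widely. Notch3, the receptor of mural cells, had 3.53 in both replicates in a wholly coding inner-exon region, and Nos3, endothelial nitric oxide synthase, had 3.14 and 2.63. Heyl and Hey1, Notch target genes, had 3.93 and 2.98, and 2.54 and 2.45, in their last exons. Col1a1, the main collagen of fibroblasts, had 1.74 and 2.04, and Col6a3 had 1.60 and 1.52. Dbp, a clock output gene, had 2.83 and 2.34, while Per3 had 0.558 and 0.643. Low values were also found for Cd163, a macrophage receptor gene, with 0.563 and 0.744, for Grin2b, a glutamate receptor gene, with 0.574 and 0.777, and for Tdrd1, a germ cell gene, with 0.640 and 0.509. Tubb5 had 2.58 and 3.04 and Gapdh 1.46 and 1.504. Even genes of tissues not sampled had some, with 2.15 and 2.02 for Rbfox3, a neuronal splicing factor, 1.91 and 1.40 for Apoa1, the apolipoprotein of liver, and 1.93 and 1.84 for Zp3 of the egg coat. For Zp3 only 2 of the 220 bases were exonic.

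Many exonic peaks were called in only 1 replicate. Of 6643 exonic peaks in replicate 1, 58.2% overlapped a peak of replicate 2, and of 5088 in replicate 2, 74.7% overlapped a peak of replicate 1, a mean of 66.5% ± 11.7 (SD, n = 2). For intronic peaks the values were 50.9% and 84.5%, and for intergenic peaks 54.2% and 80.5%. Exonic peaks were thus matched more often than intronic ones in replicate 1 and less often in replicate 2, the replicate with fewer peaks. The unmatched exonic peaks were weak, with a median signal of 0.388 in replicate 1 and 0.296 in replicate 2, against 0.929 and 0.866 for the matched.

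Some genes held many of these unmatched peaks, though most lay elsewhere. Ttn, which encodes the giant sarcomere spring titin, had 45 exonic peaks in replicate 2 and 9 in replicate 1, and 42 of the 45 overlapped no peak of replicate 1, with signals of 0.0894 to 0.369. Gab2 and Vps33a had 14 exonic peaks each in replicate 2 and none in replicate 1. In the other direction, Myh4, the myosin of the fastest fibres, had 18 exonic peaks in replicate 1, with signals of 0.274 to 0.645, and none in replicate 2, and Ckm, muscle creatine kinase, had 9 in replicate 1 and 1 in replicate 2. These genes were chosen as the leading ones by that count after their values were seen. Ttn kept 3 exonic regions shared by the replicates, Ckm 1 and Myh4 none.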

How the data were processed

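DNase-seq files of 2 samples were used, 1 of each biological replicate. For each sample the deposited files hold 2 peak lists of different length, footprints, and single bases with a false discovery rate (a p-value adjusted for many tests). The peak signal is the authors' value per peak, and its scale, the read depth, the aligner and the peak caller are not given in the sources used here, so signals were ranked within each list. Replicate 1 had 131398 peaks and 339656 footprints, and replicate 2 had 91567 and 234091. Alleles were not separated.

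Places and exon classes came from GENCODE M21 on mm10 (GRCm38), over 21 chromosomes. A shared footprint is a run of overlapping footprints with at least 1 from each replicate. Shares have exact binomial and densities exact Poisson intervals at 95%, which cover counting error only. With 2 samples of 1 group there is no contrast, and no p-value was computed. The text names the 10 inner-exon and 10 last-exon regions of highest mean signal percentile, the 10 genes with most regions (13 with ties), up to 2 regions per gene list and 6 sequences, none from chromosome 18. Regions and lists were chosen with earlier results of these data known. Python 3.11.15, numpy 2.4.6, pandas 2.3.3, scipy 1.17.1, numba 0.67.0 and matplotlib 3.10.9 were used. The scripts were tested on simulated data and recovered the place of 556 of 556 regions. Each simulated region lay wholly inside an exon, an intron or an intergenic stretch. Regions across splice sites or close to the distance limit were not simulated.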

Additional observations from a re-analysis of the deposited data

How the results depend on the processing

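Across 12 alternatives, 55 of 82 values stayed within their limits and 27 did not. Of the alternatives, 2 (repeated words and regions of 500 bp or more left out) were chosen after seeing the data. The limits were the spread or counting interval, except for the number of regions. That number was judged by a fixed fold limit, wider than its counting error, and stayed within it in 9 alternatives. With the shorter peak lists there were 2304 exonic regions, a footprint share of 97.4% and a median of 56% G or C. With the peaks of highest signal alone there were 1228 regions, an inner-exon share of 48.9%, a median percentile of 46.6, a footprint share of 99.7%, 57% G or C, an exon to intron ratio of 1.87 and a replicate overlap of 78.3%. Equal numbers of peaks gave a footprint share of 95.7%. Exons of every transcript gave an inner-exon share of 36.6% and 55.3% G or C. Centres inside an exon gave 36.4% and 55.9%, and start sites of every transcript gave 46.7% and 55%. A limit of 2 kb gave 55% G or C. The cause of these shifts was not tested.

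Leaving out a replicate gave 5088 to 6643 regions, an inner-exon share of 49.8% to 50.04%, a median percentile of 45.6 to 50.5, a footprint share of 81.2% to 84.5%, 54.9% to 56.1% G or C and a ratio of 1.49 to 1.88. The replicate overlap has no value then. No paired analysis was possible because there is 1 group. Depth is unknown, so peaks found in 1 replicate alone cannot be told apart from a difference in depth.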
